A study of Mus musculus with 9 samples.

Results

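The regions described here are the H3K4me3 peaks that were listed in mature eosinophils and overlapped no peak listed in either progenitor. They are the 4668 unique intervals of the Eos peak list, of 33847 in all, that reached a −log10 q of 2 and shared no base with any of the 19816 EoP or 30645 GMP intervals. The members were thus chosen by the H3K4me3 readout itself, so their presence in Eos and absence elsewhere is a description and carries no test. Another 18398 Eos peaks of the same q limit overlapped an EoP or GMP peak and are called shared peaks below. By the same rule, 658 EoP and 8366 GMP peaks stood alone.

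Cells were sorted without treatment from the pooled bone marrow of Balb/c mice; the labels give neither age nor sex. The 3 populations were mature eosinophils (Eos; Siglec-F+, CCR3+), eosinophil progenitors (EoP; Lin-, CD34+, low c-kit, CD125+) and granulocyte-macrophage progenitors (GMP; Lin-, CD34+, high c-kit, CD16/32+). Each had 2 RNA libraries from independent sorts and 1 H3K4me3 library from 1 sort, so the peaks have no replicate, and the p-values of the RNA measure only the spread between sorts. RNA libraries held 10940000 and 10790618 counts in Eos, 9628492 and 12088134 in EoP, and 6576661 and 5226653 in GMP; the depth of the H3K4me3 libraries is unknown. Genes of the gate markers were checked in the RNA. Ccr3 was at 2272 and 2973 CPM (counts scaled to a TMM-adjusted library size) in Eos, against 21.3 and 34.5 CPM in EoP and 1.57 and 0.894 CPM in GMP. Il5ra, which encodes CD125, was at 619 and 1179 CPM in Eos, 436 and 399 CPM in EoP and 2.18 and 1.79 CPM in GMP. Siglec5, the symbol under which the files list Siglec-F, was at 308 and 415 CPM in Eos, 282 and 262 CPM in EoP and 18.6 and 15.5 CPM in GMP, and was not called between Eos and EoP (edgeR's adjusted p = 0.185). Kit was at 111 and 39.1 CPM in Eos, 200 and 237 CPM in EoP and 309 and 296 CPM in GMP, and Cd34 at 18.4 and 7.72 CPM in Eos, 53.0 and 61.8 CPM in EoP and 130 and 123 CPM in GMP. CD16/32 is encoded by Fcgr3 and Fcgr2b. Fcgr3 was at 412 and 593 CPM in Eos, 225 and 190 CPM in EoP and 27.0 and 34.7 CPM in GMP. Fcgr2b was at 155 and 271 CPM in Eos, 140 and 133 CPM in EoP and 37.2 and 43.4 CPM in GMP. Both were thus lowest in GMP, the cells gated as CD16/32+.

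Trimethylation of lysine 4 on histone H3 is laid down by SET1 and MLL methyltransferases around the starts of active genes. At CpG-rich starts the mark is often broad and present in many cell types, while starts poor in CpG tend to carry it where the gene is transcribed. It typically peaks just downstream of the start, over the first nucleosomes of the gene, and weak signal also occurs at enhancers. Eosinophils are granulocytes that arise from GMP through EoP, load their granules with basic proteins during maturation, and leave the marrow with chemokine, lipid and inhibitory receptors on their surface.

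Most Eos-only peaks were faint. The pileup, the height of the read stack at the summit in the authors' list, had a median of 3 over the 4668 members against 17 over the 18398 shared Eos peaks. It was exactly 3 at 2711 members (58.1%), and 2606 members (55.8%) held one and the same −log10 q of 2.07. A pileup of 10 or more was reached by 465 members (9.96%) and by 75.5% of the shared peaks. Only 354 members passed a −log10 q of 5 and 22 passed 10, and the highest values were a −log10 q of 19.4 and a pileup of 36. A description of the members as well supported therefore held for a minority of them, and they are described below by class and by pileup. Just inside the q limit were peaks of Eif4g1, Trerf1 and S1pr4, all at a −log10 q of 2.00, with pileups of 7, 17 and 19, and just outside it were peaks of Gpsm3 at 1.99, Heatr5a at 1.97 and Magee1 at 1.97, with pileups of 22, 10 and 4. The lowest pileup listed was 2 in Eos, 4 in EoP and 3 in GMP. The shortest interval was 136 bases in Eos, 145 in EoP and 89 in GMP, and 1289 members were 136 bases long. No EoP peak was thus listed at the pileup of 3 or the length of 136 that many members had. For such members, absence from the EoP list does not show that the mark was absent in EoP.

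**Figure D1:**
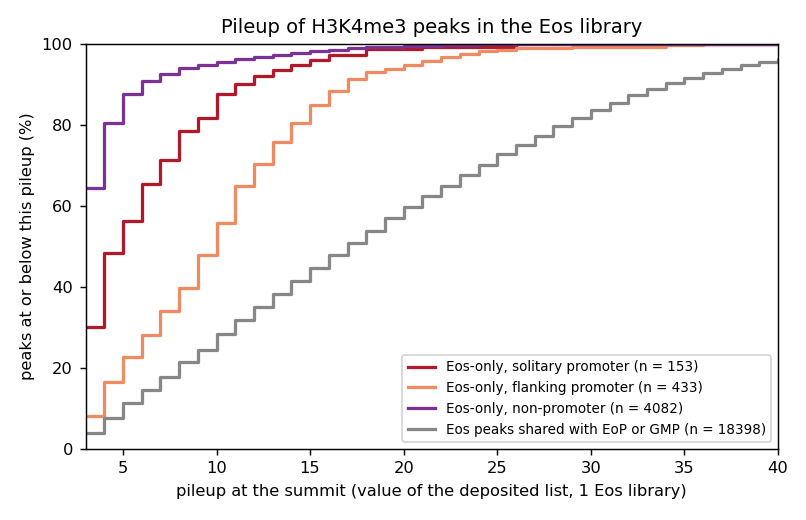
Cumulative share (%, vertical axis) of H3K4me3 peaks of the Eos list at or below each summit pileup (horizontal axis), for the 3 kinds of Eos-only peak and for shared Eos peaks, all with a −log10 q of 2 or more. Of the non-promoter members 64.4% lay at a pileup of 3, against 30.1% of solitary promoter, 8.08% of flanking promoter members and 3.86% of shared peaks.

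By the authors' annotation 1655 members were intergenic, 1630 intronic, 586 at promoters, 563 upstream of genes and 234 exonic. Promoters made up 12.6% of the members against 78.2% of the shared Eos peaks. The promoter members fell into 2 kinds. At 153 there was no EoP or GMP peak within 1000 bases, and these are called solitary. The other 433, called flanking, lay at a median gap of 156 bases from a progenitor peak. Of these, 376 were also within 1000 bases of another Eos peak. The class of the neighbouring progenitor peaks was not examined. The split into solitary and flanking was made after the peak values had been seen.

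The kinds also differed in their place beside the start. Of the 153 solitary promoter summits 116 (75.8%) were at or downstream of the nearest RefSeq transcript start and 37 were upstream. Shared Eos promoter peaks had 75.1% downstream. Of the 433 flanking summits only 178 (41.1%) were downstream and 255 (58.9%) upstream, with the fullest 100-base bin, 66 summits, between −300 and −200 bases.

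**Figure D2:**
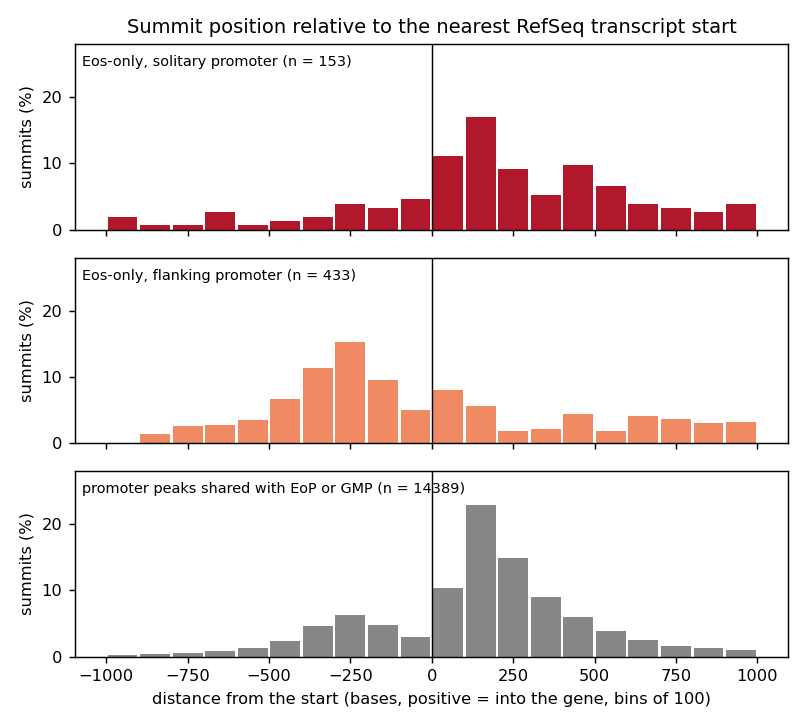
Share of promoter peak summits (%, vertical axis) by distance from the nearest RefSeq transcript start in bins of 100 bases (horizontal axis, negative upstream, positive into the gene), for solitary and flanking Eos-only peaks and for shared Eos promoter peaks; a few summits beyond 1000 bases are not drawn. Solitary and shared summits pile up just inside the gene, flanking summits before its start.

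Sequences under the promoter members differed in CpG content. RefSeq promoter windows of the GRCm38.p6 reference, which run from 250 bases before a start to 50 after it, are shown for 4 solitary promoters whose genes are described below and for 1 flanking promoter as a contrast. They are the C57BL/6J reference and not the Balb/c genome of these cells. Capitals mark CpG dinucleotides, and each window is written 5′ to 3′ along its gene.
Bank1 (chr3:136326017-136326316, strand -): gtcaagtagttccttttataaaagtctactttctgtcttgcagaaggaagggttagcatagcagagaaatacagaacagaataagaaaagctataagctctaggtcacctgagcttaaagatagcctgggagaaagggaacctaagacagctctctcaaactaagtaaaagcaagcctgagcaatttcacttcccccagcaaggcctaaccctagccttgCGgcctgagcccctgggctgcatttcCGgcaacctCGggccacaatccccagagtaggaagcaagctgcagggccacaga
Padi4 (chr4:140774154-140774453, strand -): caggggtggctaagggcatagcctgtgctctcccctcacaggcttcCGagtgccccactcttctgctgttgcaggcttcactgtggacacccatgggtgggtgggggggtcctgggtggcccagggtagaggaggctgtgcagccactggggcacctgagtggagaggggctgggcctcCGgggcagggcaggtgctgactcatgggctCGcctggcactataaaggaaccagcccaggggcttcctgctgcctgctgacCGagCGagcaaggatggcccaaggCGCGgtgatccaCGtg
Il1rn (chr2:24345121-24345420, strand +): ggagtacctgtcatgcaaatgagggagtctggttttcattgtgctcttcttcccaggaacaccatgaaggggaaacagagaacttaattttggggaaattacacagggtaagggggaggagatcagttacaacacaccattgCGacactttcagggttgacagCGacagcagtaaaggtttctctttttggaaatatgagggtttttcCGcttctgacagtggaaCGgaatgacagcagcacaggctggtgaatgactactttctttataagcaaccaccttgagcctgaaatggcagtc
Ccr3 (chr9:124021721-124022020, strand +): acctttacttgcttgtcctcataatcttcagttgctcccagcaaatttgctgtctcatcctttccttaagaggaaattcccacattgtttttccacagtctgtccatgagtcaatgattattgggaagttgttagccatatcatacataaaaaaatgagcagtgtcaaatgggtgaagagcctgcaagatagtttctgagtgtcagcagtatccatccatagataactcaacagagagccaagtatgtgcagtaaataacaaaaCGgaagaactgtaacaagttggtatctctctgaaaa
Pa2g4 (chr10:128565885-128566184, strand -): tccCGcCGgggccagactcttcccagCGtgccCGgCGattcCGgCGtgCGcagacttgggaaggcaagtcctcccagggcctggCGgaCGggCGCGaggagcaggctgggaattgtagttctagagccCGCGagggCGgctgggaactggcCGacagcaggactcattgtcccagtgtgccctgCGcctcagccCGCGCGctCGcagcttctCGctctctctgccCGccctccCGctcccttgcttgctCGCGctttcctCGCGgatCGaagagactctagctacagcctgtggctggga

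The Bank1 window held 3 CpG, the Padi4 window 8, the Il1rn window 4 and the Ccr3 window 1, against 29 in the Pa2g4 window. The solitary peaks of Bank1, Padi4 and Il1rn overlapped the windows shown, and the first Ccr3 peak began just downstream of its window. Over the 39 windows that a solitary peak overlapped and no shared Eos peak touched, the median was 7 CpG and 7 windows (17.9%) had an observed-to-expected CpG ratio of 0.6 or more. These windows are not independent: they belonged to 33 gene symbols and lay under 31 peaks, over which the median was also 7 CpG. Only 25 of the 137 solitary promoter genes had a window under their peak by the same symbol. Over 210 windows under flanking peaks the median was 24 CpG and 78.6% reached that ratio, over 9906 windows under shared Eos peaks it was 23 CpG and 82.6%, and over all 32817 windows it was 7 CpG and 35.8%. Windows touched by a shared peak were taken out of the solitary set only. The flanking and shared sets may thus hold the same windows, and their likeness is in part built in. Solitary windows thus held as many CpG at the median as promoter windows in general and far fewer than windows under a flanking or shared peak; no test was run on these values.

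**Figure D3:**
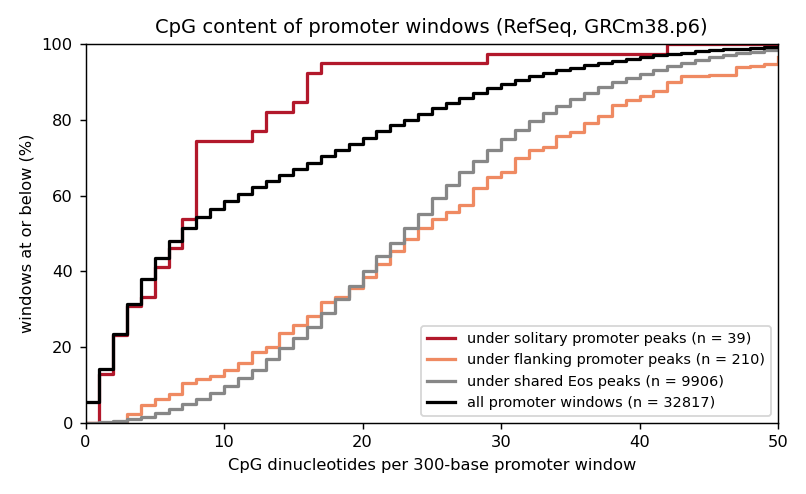
Cumulative share (%, vertical axis) of 300-base RefSeq promoter windows at or below each number of CpG dinucleotides (horizontal axis), for windows under solitary, flanking and shared Eos peaks and for all windows. The solitary curve follows that of all windows up to 7 CpG (53.8% and 51.4%) and then runs above it (74.4% and 58.6% at 10 CpG), and the flanking and shared curves lie together to the right. A window may count in both the flanking and the shared set.

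Of 6 short motifs searched on both strands, none was in most solitary windows. TTNNGCAA, the core of C/EBP sites, was in 9 of 39 solitary windows (23.1%), 16 of 210 flanking windows (7.62%), 7.43% of shared and 10.8% of all windows. The 9 windows lay under 7 peaks. GATAA, the core of GATA sites, was in 5 solitary windows (12.8%), 13.3% of flanking, 13.4% of shared and 25.4% of all windows. GAGGAA, found in PU.1 and other ETS sites, was in 25.6% and 28.3%, TGTGGT, of RUNX sites, in 17.9% and 16.8%, and TGANTCA, of AP-1 sites, in 5.13% and 7.81% of solitary and of all windows. The NF-kappaB motif was in 15.4% of solitary, 32.9% of flanking, 27.8% of shared and 20.7% of all windows. The Bank1 window held the C/EBP motif, the Padi4 window the AP-1 motif, the Ccr3 window the GATA, ETS, AP-1 and NF-kappaB motifs, and the Il1rn window none of the 6. With 39 windows, each window is worth several percentage points.

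RNA was measured in separate libraries and took no part in choosing the peaks. The 4668 members were annotated to 3666 of the 23471 genes in the RNA files. In edgeR's quasi-likelihood test with Benjamini-Hochberg adjustment, at an adjusted p under 0.05, 782 of these genes were higher in Eos than in EoP, 387 were lower, 1473 did neither and 1024 had too few counts to be tested. Over all 14324 tested genes 19.1% were higher and 17.7% lower. Against GMP 894 were higher and 738 lower, where 22.7% of all tested genes were higher and 31.8% lower. Between the progenitors, EoP against GMP, 414 were higher and 505 lower, with 9.49% and 17.1% of all tested genes. Because a gene may pass the count filter only through the cells where it is high, the share of all listed genes with both Eos libraries above all 4 progenitor libraries is given too. It was 25.1% of the 3666 genes and 16.1% of all 23471 genes. Among the 9320 genes with an Eos promoter peak and no Eos-only peak it was 24.1%, near the share of the 3666. Single libraries moved the counts of lower genes: without EoP replicate 1 or EoP replicate 2, 226 were lower than in EoP each time, and without GMP replicate 1 or 2, 321 and 242 were lower than in GMP. For EoP against GMP, leaving out GMP replicate 1 gave 184 higher and 68 lower, leaving out GMP replicate 2 gave 223 and 87, leaving out EoP replicate 1 gave 255 and 140, and leaving out EoP replicate 2 gave 147 lower.

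The split into higher and lower changed with the processing. Limma on the authors' RPKM changed scaling, test and gene filter together. It tested 1826 of the member genes, against 2642 in edgeR's test. The part of each change was not tested. With limma on the authors' RPKM, which moved the median log2 fold change of all genes by −0.42 against EoP, −0.17 against GMP and 0.24 for EoP against GMP, the counts were 499 higher and 637 lower against EoP, 759 and 420 against GMP, and 574 and 61 for EoP against GMP. With upper quartile factors, which moved the median against GMP by −0.23, 805 were higher and 878 lower than in GMP.

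The RNA differed with the kind and height of the peak. Among the 137 genes with a solitary promoter peak, both Eos libraries were above the 4 others at 71 genes (51.8%), beside 16.1% of all genes. Against EoP 64 were higher, 4 were lower, 35 did neither and 34 were not tested. Of the 103 tested 62.1% were thus higher and 3.88% lower, beside 19.1% and 17.7% of all tested genes. Against GMP 66 of the 103 tested were higher (64.1%) and 7 lower (6.80%), beside 22.7% and 31.8% of all tested genes. Higher than in both progenitors were 60 of the 103 (58.3%), beside 14.5% of all tested genes. The median log2 fold change over the 103 tested was 2.28 against EoP and 2.82 against GMP, beside 0.02 and −0.39 over all tested genes. Limma on RPKM tested 72 of the 137 genes, and their medians were 2.04 against EoP and 2.67 against GMP. The share with both Eos libraries on top followed the pileup: 21 of 26 genes (80.8%) at a pileup of 10 or more, 37 of 67 (55.2%) at 4 to 9 and 13 of 44 (29.5%) at 3. At the earlier step, EoP against GMP, 30 of the 103 tested were called higher (29.1%) and 14 lower (13.6%), beside 9.49% and 17.1% of all tested genes. The 137 genes include Ccr3, a gene of the Eos gate.

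Flanking promoter peaks gave a weaker picture. Of their 454 genes 127 were higher in Eos than in EoP and 77 lower (31.4% and 19.1% of those tested, beside 19.1% and 17.7% of all tested genes), and 146 (32.2%) had both Eos libraries on top. Genes with non-promoter members only numbered 3075, of which 591 were higher and 306 lower (27.7% and 14.3% of those tested). Here too the share went with the pileup: both Eos libraries were on top at 132 of 201 genes (65.7%) with a pileup of 10 or more, 265 of 1070 (24.8%) at 4 to 9 and 306 of 1804 (17.0%) at 3. The last share is near the 16.1% of all genes. By class the share was 34.6% for exonic, 28.8% for intronic, 23.7% for upstream and 15.1% for intergenic members. Genes with an Eos promoter peak and no Eos-only peak numbered 9320, and 24.1% of them had both Eos libraries on top and 33.9% both below.

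**Figure D4:**
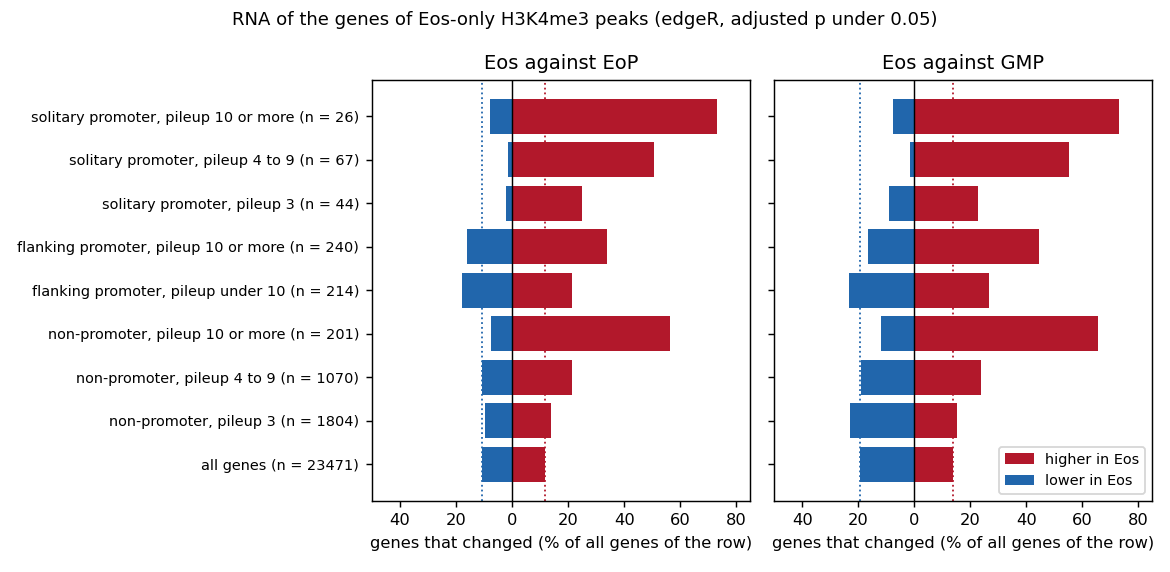
Share of genes (%, horizontal axis) whose RNA was higher (red, right of 0) or lower (blue, left of 0) in Eos than in EoP (left panel) and than in GMP (right panel) at an adjusted p under 0.05, by kind and pileup of the Eos-only peak, with all genes of the row as the base; dotted lines mark all 23471 genes. Solitary promoter genes of pileup 10 or more reach 73.1% higher in both panels, and non-promoter genes of pileup 3 reach 13.7% and 15.3%, beside 11.6% and 13.9% of all genes.

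The solitary promoter peak with the highest −log10 q lay over the first part of Bank1 at chr3:136325480-136326028 on mm10, with a pileup of 18, a −log10 q of 15.8 and its summit 262 bases inside the gene. Bank1 encodes a scaffold protein known from B-cell receptor signalling. Its RNA was at 320 and 534 CPM in the Eos libraries, 21.8 and 22.4 CPM in EoP and 7.38 and 3.58 CPM in GMP. Bank1 was higher in Eos, with a log2 fold change of 4.27 against EoP (SE 0.36, adjusted p = 4.8e-05) and of 6.26 against GMP (SE 0.41, adjusted p = 5.2e-06). The 4 progenitor libraries lay far below both Eos libraries. The B-cell marker list moved in the same libraries: its 19 genes summed to 349.9 and 156.1 CPM in Eos, 29.5 and 83.8 in EoP and 60.8 and 44.7 in GMP, and its part in the Bank1 result was not tested.

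Lipid and chemotactic receptors followed. Ptafr, the receptor of platelet-activating factor, had a peak of 893 bases at chr4:132564189-132565081 with a pileup of 16 and a −log10 q of 10.7. Its RNA was at 103 and 140 CPM in the Eos libraries, 5.31 and 3.86 CPM in EoP and 5.45 and 2.09 CPM in GMP. Ptafr was higher in Eos, with a log2 fold change of 4.74 against EoP (SE 0.40, adjusted p = 4.77e-05) and of 4.98 against GMP (SE 0.41, adjusted p = 1.88e-05). Ccr3, the eotaxin receptor on which the Eos gate was set, had 3 members in a row from its start, at pileups of 14, 15 and 13, and the nearest progenitor peak was 53834 bases away. Because cells were sorted on CCR3, its RNA is no finding between the groups. C5ar1, the receptor of complement C5a, had 2 peaks with a pileup of only 3. C5ar1 RNA was at 68.1 and 77.4 CPM in the Eos libraries, 0.826 and 1.2 CPM in EoP and 11.4 and 4.32 CPM in GMP (log2 fold change 6.12, SE 0.49, adjusted p = 3.61e-05 against EoP). P2ry10, a receptor for lysophospholipids, was at 119 and 229 CPM in the Eos libraries, 17.2 and 14.2 CPM in EoP and 0.242 and 1.94 CPM in GMP, and Gpr18 at 40.2 and 59.8 CPM in the Eos libraries, 9.43 and 11.1 CPM in EoP and 6.41 and 3.72 CPM in GMP. In all of these the Eos libraries lay above the 4 others.

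Inhibitory and paired receptors of the immunoglobulin superfamily, which set activation thresholds through ITIM or ITAM motifs, were common among the solitary promoters. Counted by symbol, a grouping made after the values were seen, 42 such genes (Pira, Lilr, Pilr, Cd300, Siglec, Cd33, Gp49a, Fcrl and Trem families and AF251705) were in the files. Of these 14 (33.3%) had a solitary promoter peak, against 0.58% of all genes. The 14 are not separate peaks, as Pira4, Pira7 and Pira11 shared 1 and Lilra6 and Pira1 shared theirs. The 13 that were tested were all higher in Eos than in EoP and than in GMP, beside 19.1% and 22.7% of all tested genes. Pira4 and Pira7 had identical counts and are counted as 2 of the 13. The calls of Pira11, Pilrb1 and Pilrb2 against EoP did not hold when single libraries were left out. Of the 23 with no Eos-only peak, 17 were tested, and 12 were higher than in EoP and 7 higher than in GMP.

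Siglecg, a sialic-acid-binding inhibitory receptor, had a peak with a pileup of 10 and its summit at −12 bases from the start. Siglecg RNA was at 192 and 308 CPM in the Eos libraries, 35.3 and 36.2 CPM in EoP and 38.7 and 32 CPM in GMP. Siglecg was higher in Eos, with a log2 fold change of 2.81 against EoP (SE 0.27, adjusted p = 0.000101) and of 2.82 against GMP (SE 0.27, adjusted p = 4.42e-05). Cd33, of the same receptor class, was at 116 and 111 CPM in the Eos libraries, 11.3 and 15.1 CPM in EoP and 9.68 and 8.34 CPM in GMP (log2 fold change 3.10, SE 0.25, adjusted p = 3.7e-05 against EoP). Cd300lf, an inhibitory receptor for lipids, was at 89.1 and 144 CPM in the Eos libraries, 7.08 and 4.11 CPM in EoP and 0.726 and 1.19 CPM in GMP, and Gp49a at 440 and 945 CPM in the Eos libraries, 54.6 and 20.7 CPM in EoP and 7.38 and 7.15 CPM in GMP. The Eos libraries of all 4 lay above the others without overlap.

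Pira4, Pira7 and Pira11 shared 1 peak with a pileup of 8. Pira4 and Pira7 had identical counts and cannot be told apart, at 183 and 288 CPM in the Eos libraries, 7.08 and 6.09 CPM in EoP and 1.69 and 1.04 CPM in GMP for each (log2 fold change 5.16, SE 0.32, adjusted p = 1.22e-05 against EoP). Lilra6 shared both of its peaks with Pira1 and was at 273 and 555 CPM in the Eos libraries, 6.6 and 8.91 CPM in EoP and 0.847 and 0.745 CPM in GMP, whereas Pira1 had no count in Eos or EoP. Pira11 had 9.04 and 14.7 CPM in Eos, 0 and 2.57 CPM in EoP and no count in GMP, and its difference from EoP lost its call without Eos replicate 2. These paralogs are alike in sequence, and counts may be split among them. Pilrb1 carried 4 members within 1431 bases, 3 of them at the promoter, with pileups from 7 to 12. Pilrb1 RNA was at 46.1 and 42.2 CPM in the Eos libraries, 21.3 and 25.8 CPM in EoP and 5.08 and 3.13 CPM in GMP (log2 fold change 0.90, SE 0.28, adjusted p = 0.0279 against EoP). This was a difference that lost its call without EoP replicate 1 and without EoP replicate 2. The call of Pilrb2 was lost without EoP replicate 1 and without Eos replicate 2.

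Cytokines and granulocyte effectors formed another group. Il1rn, the secreted antagonist of interleukin-1, had a peak with its summit 37 bases past an internal start at chr2:24345278-24345542 with a pileup of 8 and a −log10 q of 7.29, and the nearest progenitor peak was 21666 bases away. RefSeq also lists a start of Il1rn farther upstream, which the peak did not reach. Its RNA was at 159 and 259 CPM in the Eos libraries, 1.77 and 3 CPM in EoP and 0.726 and 1.79 CPM in GMP. Il1rn was higher in Eos, with a log2 fold change of 6.42 against EoP (SE 0.43, adjusted p = 1.48e-05) and of 7.41 against GMP (SE 0.47, adjusted p = 4.22e-06). Il1a, one of the cytokines it opposes, had a peak of a pileup of 3 and RNA at 10.2 and 6.78 CPM in the Eos libraries, 0 and 0.6 CPM in EoP and 0.242 and 1.04 CPM in GMP (log2 fold change 4.63, SE 0.96, adjusted p = 0.00476 against EoP). Cxcl2, a neutrophil chemokine, had a solitary promoter peak as well, and its RNA was at 2.31 and 27.1 CPM in the Eos libraries, 17.5 and 0 CPM in EoP and 0.363 and 22.5 CPM in GMP. The replicates of each cell type lay far apart and the groups overlapped.

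Several solitary promoters belonged to genes best known from neutrophils. Retnlg, a resistin-like secreted protein, carried 4 members within 1369 bases, 3 at the promoter and 1 over an exon, with pileups from 9 to 11. Its RNA was at 20590 and 35159 CPM in the Eos libraries, 8.61 and 5.23 CPM in EoP and 0.726 and 2.83 CPM in GMP. Retnlg was higher in Eos, with a log2 fold change of 11.98 against EoP (SE 0.80, adjusted p = 1.48e-05) and of 13.97 against GMP (SE 0.87, adjusted p = 3.88e-06). Mmp9, the gelatinase of granulocyte granules, also carried 4 members, of which the promoter peaks had pileups of 12 and 11, and was at 410 and 529 CPM in the Eos libraries, 1.65 and 1.46 CPM in EoP and 1.09 and 1.19 CPM in GMP. Mmp9 was higher in Eos, with a log2 fold change of 8.23 against EoP (SE 0.31, adjusted p = 1.94e-06) and of 8.67 against GMP (SE 0.33, adjusted p = 1.37e-06). Padi4, which citrullinates histones, had peaks of 15 and 10 and was at 359 and 491 CPM in the Eos libraries, 40.9 and 41.1 CPM in EoP and 3.27 and 2.68 CPM in GMP. Padi4 was higher in Eos, with a log2 fold change of 3.37 against EoP (SE 0.25, adjusted p = 2.33e-05) and of 7.14 against GMP (SE 0.31, adjusted p = 1.37e-06). Camp, Ngp and Itgb2l, a cathelicidin, a secondary-granule protein and an integrin subunit, had single peaks with pileups of 5, 5 and 6. Camp was at 901 and 478 CPM in the Eos libraries, 22.5 and 3.86 CPM in EoP and 21.8 and 3.43 CPM in GMP. Ngp was at 4467 and 3889 CPM in the Eos libraries, 241 and 137 CPM in EoP and 110 and 17.6 CPM in GMP. Itgb2l was at 33.9 and 24.7 CPM in the Eos libraries, 2.59 and 3.69 CPM in EoP and 3.27 and 1.19 CPM in GMP. All 3 were called higher than in EoP and than in GMP, and the groups did not overlap.

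Neutrophil markers as a whole moved in the same libraries. Of 34 markers in the files, 11 (32.4%) had an Eos-only peak and 6 a solitary promoter peak. Among all genes 15.6% had an Eos-only peak and 0.58% a solitary promoter peak. Of the 33 tested, 32 were higher in Eos than in EoP and 28 higher than in GMP. Over all tested genes 19.1% and 22.7% were. Their CPM summed to 48873 and 55859 in Eos, 2534 and 2286 in EoP, and 3362 and 1786 in GMP, and none was at 0 in both Eos libraries. Ltf, the lactoferrin of secondary granules, was at 714 and 598 CPM in Eos, 2.71 and 1.20 in EoP and 3.15 and 4.62 in GMP. Monocyte, macrophage and dendritic markers summed to 3355 and 2428 CPM in Eos, 1295 and 1263 in EoP and 1954 and 1521 in GMP, and none of those 30 was at 0 in both Eos libraries either. Their part in these results was not tested. In bulk samples, fewer cells of a type and less RNA per cell cannot be told apart.

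Myadm, a membrane protein of myeloid differentiation, showed a solitary peak at one of several starts of a gene that had progenitor peaks elsewhere. The peak at chr7:3290540-3291109, with a pileup of 26, covered the starts of 2 RefSeq transcripts, and the nearest progenitor peak was 1353 bases away. The estimated counts of these 2 transcripts summed to 24427 and 35544 in Eos, 570 and 1347 in EoP and 0 in both GMP libraries, where other starts had 430 and 290. Counts of transcripts that overlap are estimates. These 2 made up 92.4% and 83.0% of the gene's counts in Eos and 39.4% and 79.8% in EoP. For the whole gene the RNA was at 2654 and 5006 CPM in the Eos libraries, 171 and 145 CPM in EoP and 52 and 43.2 CPM in GMP. Myadm was higher in Eos, with a log2 fold change of 4.60 against EoP (SE 0.39, adjusted p = 4.43e-05) and of 6.33 against GMP (SE 0.42, adjusted p = 5.37e-06). Of the 137 solitary promoter genes, 14 had an EoP or GMP peak at another of their promoters, and 13 of these were tested. In Eos 6 were higher and 2 lower than in EoP, and 4 were higher and 2 lower than in GMP. Over all tested genes 19.1% were higher and 17.7% lower than in EoP, and 22.7% and 31.8% than in GMP.

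Other solitary promoters of a pileup of 10 or more belonged to genes of several functions. March1, a ubiquitin ligase that lowers surface CD86 and MHC class II, had a peak of 12, and its RNA was at 117 and 175 CPM in the Eos libraries, 0.472 and 1.03 CPM in EoP and 3.51 and 2.68 CPM in GMP (log2 fold change 7.52, SE 0.41, adjusted p = 9.84e-06 against EoP). Cd86, the costimulatory ligand, had a solitary promoter peak of 6 of its own and was at 16.5 and 18.8 CPM in the Eos libraries, 0.118 and 0.171 CPM in EoP and 1.94 and 2.23 CPM in GMP. Nlrp12, a NOD-like receptor, had a peak of 11 and was at 113 and 225 CPM in the Eos libraries, 17.8 and 23.6 CPM in EoP and 5.2 and 5.36 CPM in GMP (log2 fold change 3.03, SE 0.34, adjusted p = 0.000205 against EoP). Aqp9, a channel for water and glycerol, had a peak of 10 and was at 205 and 317 CPM in the Eos libraries, 17.2 and 29.5 CPM in EoP and 1.21 and 0.894 CPM in GMP (log2 fold change 3.48, SE 0.33, adjusted p = 8.33e-05 against EoP). Capg, an actin-capping protein, had a peak of 11 and was at 190 and 233 CPM in the Eos libraries, 23.7 and 20.3 CPM in EoP and 31.5 and 30.4 CPM in GMP (log2 fold change 3.26, SE 0.23, adjusted p = 2.03e-05 against EoP). In each of these genes both Eos libraries lay above the 4 others. Cfl1, an actin-severing protein, and Mus81, a DNA endonuclease, shared a peak of 21, and neither was called against either progenitor.

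Not all solitary promoters went with more RNA. Among 5 histone genes of the Hist1 cluster, which are expressed in dividing cells, Hist1h2ak and Hist1h3i were lower in Eos than in EoP, and Hist1h2bn, Hist1h2an and Hist1h2bp were not called. Hist1h2ak, with a peak of a pileup of 13, was at 9.84 and 1.99 CPM in the Eos libraries, 26.3 and 27.7 CPM in EoP and 40.1 and 34.9 CPM in GMP (log2 fold change -2.17, SE 0.53, adjusted p = 0.01 against EoP), and Hist1h3i at 1.41 and 0.702 CPM in the Eos libraries, 6.72 and 4.46 CPM in EoP and 3.99 and 3.72 CPM in GMP (log2 fold change -2.37, SE 0.60, adjusted p = 0.012 against EoP), a call lost without EoP replicate 1 or Eos replicate 2. These genes have near-identical copies, so their counts are uncertain. Ash2l, a subunit of H3K4 methyltransferase complexes, was at 44.1 and 27.1 CPM in the Eos libraries, 71.1 and 77.1 CPM in EoP and 47.4 and 54.5 CPM in GMP (log2 fold change -1.05, SE 0.26, adjusted p = 0.0116 against EoP), a call lost without EoP replicate 2. Spns2, an exporter of sphingosine-1-phosphate, was the fourth gene called lower than in EoP, a call lost when any of 5 libraries was left out. Another 34 genes, such as Mstn, Prlh, Noxa1 and Wnt3a, had too few counts for the test, and most of their peaks were at a pileup of 3 or 4.

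**Figure D5:**
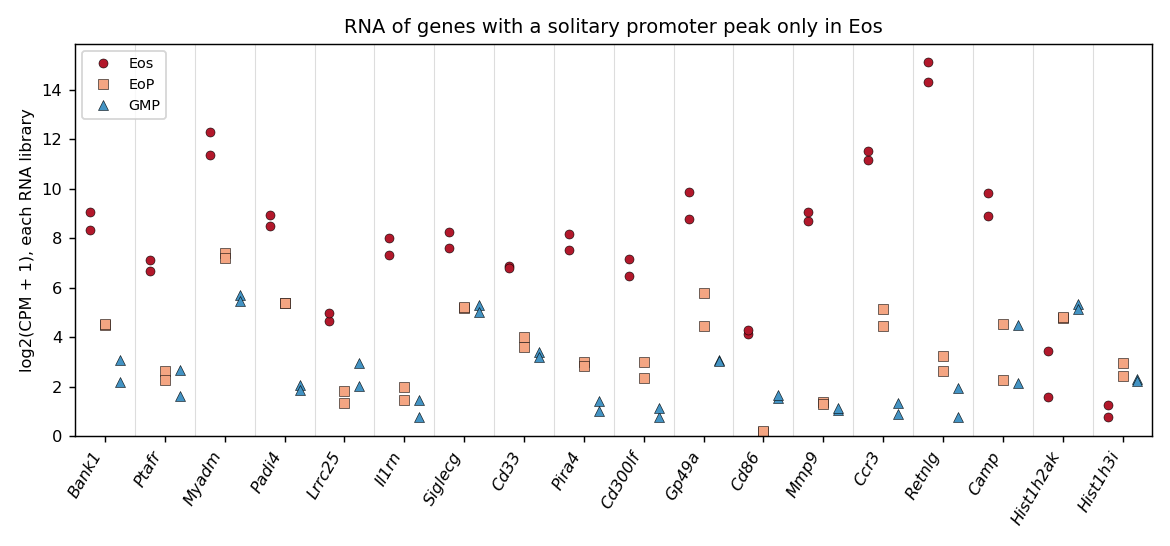
RNA level (log2(CPM + 1), vertical axis) in each of the 2 libraries of Eos (red circles), EoP (orange squares) and GMP (blue triangles) for 18 genes with a solitary promoter peak (horizontal axis). Both Eos libraries are on top at 16 genes and at the bottom at Hist1h2ak and Hist1h3i. The 16 include Ccr3, on which the Eos gate was set.

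Among flanking promoter members the highest −log10 q of the whole set, 19.4, was at Pa2g4, a growth-regulating RNA-binding protein. Its summit lay at −274 bases from the start of the window shown above, and its RNA was at 129 and 59.3 CPM in the Eos libraries, 340 and 349 CPM in EoP and 465 and 542 CPM in GMP, lower in both Eos libraries. Pa2g4 was lower in Eos, with a log2 fold change of -1.87 against EoP (SE 0.34, adjusted p = 0.00241) and of -2.42 against GMP (SE 0.34, adjusted p = 0.000443). Pcbp1, an RNA-binding protein with a flanking peak of a pileup of 34, was lower as well, at 89.6 and 77.6 CPM in the Eos libraries, 192 and 174 CPM in EoP and 124 and 179 CPM in GMP (log2 fold change -1.13, SE 0.24, adjusted p = 0.00526 against EoP). A run of 3 flanking peaks between Apobr, a receptor of triglyceride-rich lipoproteins, and Cln3, a lysosomal membrane protein, stood at genes that were higher. Apobr was at 571 and 611 CPM in the Eos libraries, 48.8 and 40.4 CPM in EoP and 13.4 and 16.4 CPM in GMP (log2 fold change 3.73, SE 0.24, adjusted p = 1.41e-05 against EoP) and Cln3 at 254 and 441 CPM in the Eos libraries, 26.4 and 30.8 CPM in EoP and 22.1 and 17.9 CPM in GMP (log2 fold change 3.60, SE 0.31, adjusted p = 4.8e-05 against EoP). Gabbr1, a GABA-B receptor subunit with a peak 18 bases from a GMP peak, was at 133 and 183 CPM in the Eos libraries, 10.7 and 16.1 CPM in EoP and 4.24 and 3.13 CPM in GMP (log2 fold change 3.55, SE 0.30, adjusted p = 4.67e-05 against EoP). Tti2 and Nr2c2, with −log10 q of 16.8 and 15.0, had adjusted p of 0.497 and 0.339 against EoP in edgeR's test. Both were called against GMP in that test, but those calls did not hold under every setting. Against EoP, strong flanking peaks thus stood at genes whose RNA was higher, lower and not shown to differ.

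Away from promoters, the highest −log10 q was 16.8 for an intergenic peak at chr7:3825212-3825474 annotated to Pira2, with a pileup of 13. Pira2 had 8.94 and 13.6 CPM in Eos, 0 and 0.171 CPM in EoP and no count in GMP. A peak of 635 bases and a pileup of 20, upstream of Chst15, a chondroitin sulfotransferase, had a neighbour of 136 bases 301 bases away. Chst15 RNA was at 326 and 523 CPM in the Eos libraries, 14.2 and 34.5 CPM in EoP and 25.5 and 22.3 CPM in GMP (log2 fold change 4.12, SE 0.42, adjusted p = 0.000128 against EoP). An intronic peak of Ptk2b, a focal adhesion kinase of leukocytes, went with 273 and 430 CPM in the Eos libraries, 50.5 and 61 CPM in EoP and 38 and 39 CPM in GMP (log2 fold change 2.65, SE 0.27, adjusted p = 0.000123 against EoP). Rgl1, an activator of Ral GTPases, carried 4 intronic members, one of them 14 bases from a GMP peak, and was at 17 and 11.7 CPM in the Eos libraries, 1.89 and 4.37 CPM in EoP and 3.27 and 2.98 CPM in GMP (log2 fold change 2.17, SE 0.50, adjusted p = 0.0078 against EoP; the call was lost without EoP replicate 1). The peak upstream of Hnrnpab and Nhp2, both RNA-binding proteins of growing cells, went with less RNA, at 280 and 141 CPM in the Eos libraries, 590 and 607 CPM in EoP and 514 and 595 CPM in GMP for Hnrnpab (log2 fold change -1.51, SE 0.32, adjusted p = 0.00525 against EoP).

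Large RNA differences also stood at members with a lower −log10 q. Tmem229a was at 237 and 554 CPM in the Eos libraries, 0.236 and 0.0857 CPM in EoP and 0.363 and 0 CPM in GMP, with an upstream peak of a pileup of 5. Adam19, a membrane metalloprotease, was at 896 and 1633 CPM in the Eos libraries, 2.95 and 1.8 CPM in EoP and 14.9 and 5.21 CPM in GMP (log2 fold change 9.07, SE 0.62, adjusted p = 1.72e-05 against EoP), with a flanking and an intronic member of pileups 12 and 14. Pla2g7, the platelet-activating factor acetylhydrolase, was at 262 and 571 CPM in the Eos libraries, 1.3 and 1.11 CPM in EoP and 1.45 and 0.596 CPM in GMP (log2 fold change 8.43, SE 0.51, adjusted p = 1.22e-05 against EoP), with an intronic peak of a pileup of 3. Serpinb2, a plasminogen activator inhibitor, had 411 and 521 CPM in Eos, 19.8 and 10.7 CPM in EoP and no count in GMP, with a promoter peak of 10 and an intronic peak of 11.

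Granule protein genes carried members too, and they were lower in Eos than in EoP. Of 14 in the list 8 (57.1%) had an Eos-only peak, beside 15.6% of all genes. Of these 8, 5 had flanking peaks, and none had a solitary promoter peak. All 8 were lower in Eos than in EoP and higher than in GMP. Over the whole list, with or without a member, 11 of the 12 tested genes were lower than in EoP and 10 higher than in GMP. Prg2, the major basic protein, was at 4426 and 3321 CPM in the Eos libraries, 176395 and 137064 CPM in EoP and 983 and 235 CPM in GMP (log2 fold change -5.34, SE 0.83, adjusted p = 0.00118 against EoP), and the peak annotated to it and Prg3 had a pileup of 3 and lay at −12638 bases from the nearest start. Epx, the eosinophil peroxidase, was at 436 and 214 CPM in the Eos libraries, 26969 and 23218 CPM in EoP and 141 and 45.1 CPM in GMP (log2 fold change -6.27, SE 0.69, adjusted p = 0.000185 against EoP), also with a peak of 3; its difference from GMP lost its call without GMP replicate 2 (adjusted p = 0.0931). Ear2, an eosinophil ribonuclease with a flanking peak of 10, was at 1053 and 931 CPM in the Eos libraries, 4764 and 3621 CPM in EoP and 9.56 and 1.04 CPM in GMP (log2 fold change -2.08, SE 0.59, adjusted p = 0.0207 against EoP); that call was lost without EoP replicate 1, and those of its close paralogs Ear1 and Ear6 without several single libraries.

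Surface and migration genes followed. Of 58 eosinophil surface genes in the files 25 (43.1%) had an Eos-only peak, beside 15.6% of all genes; 20 of the 24 tested were higher in Eos than in EoP and 1 was lower, and all 24 were higher than in GMP. Ccr3, Il5ra, Fcgr3 and Fcgr2b among the 24, and Siglec5 among the 54 tested in the whole list, encode sort markers. Their RNA is no finding between the groups. The list was built around eosinophil expression. Of its 54 tested genes 40 were higher than in EoP and 43 higher than in GMP, whether or not they had a member. Itgam, the alpha chain of the integrin Mac-1, was at 3502 and 5660 CPM in the Eos libraries, 551 and 713 CPM in EoP and 134 and 97.4 CPM in GMP (log2 fold change 2.86, SE 0.35, adjusted p = 0.000359 against EoP), with an intronic peak of 13. Of 38 migration and adhesion genes 19 had a member, and 13 of these were higher than in EoP and 1 lower, where 23 of all 38 in the list were higher and 1 lower. Adam8, a leukocyte metalloprotease with a flanking peak of 17, was at 972 and 1587 CPM in the Eos libraries, 131 and 126 CPM in EoP and 4.36 and 2.09 CPM in GMP (log2 fold change 3.31, SE 0.35, adjusted p = 0.000146 against EoP). Of 19 lipid mediator genes 8 (42.1%) had a member. All 8 were tested and 7 were higher than in EoP, beside 11 of the 17 tested in the list. They include Alox5ap, the activating protein of 5-lipoxygenase, at 1295 and 2121 CPM in the Eos libraries, 524 and 425 CPM in EoP and 201 and 182 CPM in GMP (log2 fold change 1.85, SE 0.30, adjusted p = 0.00145 against EoP).

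Of the remaining lists, 9 of 46 cytokine and chemokine genes (19.6%) had a member, near the 15.6% of all genes. Of these 9, 7 were higher in Eos than in EoP, beside 16 of the 37 tested in the list. Ccl6, a CC chemokine, was at 3038 and 5247 CPM in the Eos libraries, 207 and 117 CPM in EoP and 5.08 and 5.21 CPM in GMP (log2 fold change 4.68, SE 0.42, adjusted p = 5.79e-05 against EoP). Il4, the type 2 cytokine, had an intergenic peak with a pileup of 7 and was at 67 and 93.3 CPM in the Eos libraries, 23.2 and 12.9 CPM in EoP and 1.33 and 1.19 CPM in GMP (log2 fold change 2.15, SE 0.32, adjusted p = 0.00088 against EoP). Of 44 interferon-response genes, 6 (13.6%) had a member, near the 15.6% of all genes. These 6 were all higher in Eos than in EoP, as were 37 of the 43 tested in the whole list. Of 33 survival and NF-kappaB feedback genes 10 (30.3%) had a member. Of these 10, 3 were higher and none lower, beside 7 and 3 of the 30 tested in the list. Of 52 transcription factors of the lineage 16 (30.8%) had a member, and none had a solitary promoter peak. Of the 15 tested, 4 were higher and 3 lower. These counts were near those of the whole list, with 13 of 50 tested higher and 5 lower, and near the 19.1% and 17.7% of all tested genes. Id2, an inhibitor of helix-loop-helix factors with an exonic peak of 20, was at 224 and 337 CPM in the Eos libraries, 39 and 42.3 CPM in EoP and 3.99 and 5.66 CPM in GMP (log2 fold change 2.79, SE 0.27, adjusted p = 0.0001 against EoP). Of 25 stem and progenitor genes 8 (32.0%) had a member, and 2 of these were higher and 2 lower than in EoP. In the list 4 of the 24 tested were higher and 6 lower. Against GMP 0 of the 8 were higher and 5 lower, beside 0 and 16 of the 24 tested in the list. Kit, among the 8, and Cd34, in the list, encode sort markers, and their RNA is no finding between the groups. Among markers of other cells, beside the neutrophil list given above (32.4%), a member was annotated to 4 of 16 mast cell and basophil genes (25%), 3 of 26 erythroid and megakaryocyte genes (11.5%), 2 of 19 B-cell genes (10.5%), 3 of 30 monocyte, macrophage and dendritic genes (10%) and 1 of 31 T and natural killer genes (3.23%), where 15.6% of all genes had one. Of those tested, 1 monocyte, 2 B-cell and 2 mast cell genes were higher in Eos than in EoP, and 1 monocyte, 2 mast cell and 2 erythroid genes were lower. The sort marker gene Kit is also among the 4 mast cell and basophil genes with a member.

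Most genes had a single member. Of 3666 genes 2816 had 1, 592 had 2 and 258 had 3 or more, up to 10 at Efnb2. Efnb2 encodes an ephrin ligand; Ctnna2, an alpha catenin, had 8 members. Within 10000 bases of each other, 493 members formed 229 groups, and 4 groups held 4 or more members: those of Pilrb1, Retnlg and Mmp9 described above and 1 in Lrrk2, a kinase gene, with pileups up to 9. Members were spread over the chromosomes somewhat unlike the shared peaks: chromosome 1 held 7.95% of the members and 5.73% of the shared Eos peaks, chromosome 11 held 5.83% and 8.35%, and chromosome X held 4.26% and 3.06%.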

How the data were processed

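RNA and H3K4me3 libraries of sorted Eos, EoP and GMP were used as the authors deposited them, with cell types taken from the labels. The RNA files hold, per the file headers, estimated counts per RefSeq transcript and RPKM values calculated by the authors; the counts are whole numbers and were summed per gene. The peak files hold, per the file headers, the pileup signal at the summit, −log10 p and −log10 q, and fold enrichment for peaks the authors called in 1 library each. The submitters' processing notes name mm10, STAR 2.4.0c and Bowtie 1.0.0 without a role. Counting and peak calling tools, and any control, were not given in the sources used here. Depth of the H3K4me3 libraries is unknown, so no interval is given for peak values.

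Peak intervals were compared in Python 3.11.15 with pandas 2.3.3, and an overlap of 1 base counted as shared. RNA was tested with edgeR 4.0.16 (R 4.3.3; quasi-likelihood test, TMM, filterByExpr, all 6 libraries in 1 fit, cell type as the only term; 14324 of 23471 genes tested; Benjamini-Hochberg adjusted p under 0.05), and the code was checked on simulated counts. The residual degrees of freedom were 3, and the common dispersion was 0.0692. DESeq2 1.42.0 and limma 3.58.1 (voom, and log2(RPKM + 0.5) for genes of at least 1 RPKM in 2 libraries), other scalings and filters, a replicate block, left-out libraries and other member limits were alternatives. Promoter windows are from RefSeq (GRCm38.p6), matched by symbol for 85 of the 137 solitary promoter genes; a genome was not used here, so sequences around summits were not read.

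The members, the 15 gene lists and the named genes were chosen with earlier results of these data known. Genes were named by peak rank (the 10 promoter and 6 other peaks of highest −log10 q), by size of the RNA difference (12 rises and 6 falls against EoP, 6 of each against GMP, mean of at least 5 CPM), by level within each list (up to 4) and by number of members (3 or more). Those named in the paragraphs on solitary promoters and on receptor families were picked after their values were seen.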

Additional observations from a re-analysis of the deposited data

How the results depend on the processing

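The number of Eos-only peaks followed the limits: 354 at a −log10 q of 5, 22 at 10 and 14548 with no limit, against 4668. It was 3778 when a progenitor peak within 1000 bases counted as shared and 5033 when an overlap of 50% of the shorter interval was required. Genes higher and lower in Eos than in EoP (782 and 387) were 131 and 54 at a −log10 q of 5, 1256 and 746 with no limit, 191 and 81 for promoter peaks, 86 and 6 for genes with no progenitor peak, and 64 and 4 for solitary promoters. Against GMP (894 and 738) these were 153 and 69, 1428 and 1545, 230 and 97, 71 and 107, and 66 and 7. For EoP against GMP (414 and 505) they were 82 and 38, 621 and 1071, 111 and 57, 30 and 132, and 30 and 14. These limits use fewer or more genes by construction. RPKM gave 499 and 637 against EoP, 420 lower than in GMP, and 61 lower for EoP against GMP. A minimum of 50 counts in 2 libraries left 427 lower than in GMP and 133 lower for EoP against GMP, with fewer genes tested. The cause of the RPKM difference was not tested.

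Leaving out 1 library at a time gave 540 to 870 higher and 226 to 493 lower against EoP, 714 to 952 and 242 to 726 against GMP, and 184 to 602 and 68 to 690 for EoP against GMP. Where 1 library of a cell type was left, it was assumed to vary like the others. Solitary promoter genes higher in Eos stayed between 52 and 68 against EoP and between 59 and 66 against GMP under every RNA alternative run. The number of them tested varied from 72 with RPKM to 135 with no filter on low counts. Of 180 single-gene results, 153 were called, 32 of these lost the call under at least 1 of 15 settings and none reversed.

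Replicate numbers did not pair the sorts: deviations of same-numbered libraries correlated at −0.139 for EoP and GMP, 0.04 for Eos and GMP and −0.107 for Eos and EoP. With a replicate block the counts were 740 and 371 against EoP, 871 and 614 against GMP, and 385 and 329 for EoP against GMP. With the EoP numbers crossed, a choice made after the correlations were seen, they were 771 and 396, 878 and 669, and 421 and 401.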
